A study of Homo sapiens with 2 samples.

Results

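Core pluripotency network genes were followed in cells derived from the H1 line and sequenced at day 4 of hematopoietic induction, in 1 WT library and 1 MEIS2-/- library. The set comprised 10 genes (POU5F1, NANOG, SOX2, LIN28A, LIN28B, ZFP42, DPPA4, SALL4, TDGF1 and L1TD1), taken by name, out of 17397 genes listed in the expression tables. All 10 were found by their NCBI Gene number. TDGF1 is now called CRIPTO and was matched through its older symbol. H1 is an established human embryonic stem cell line, and both cultures had been given activin A (50 ng/ml) plus BMP4 (40 ng/ml) over 2 days, followed by VEGF (40 ng/ml) plus bFGF (50 ng/ml) over 2 further days. The WT cells carried the wildtype MEIS2 gene. The MEIS2-/- cells descended from a single cell edited with CRISPR/Cas9 from a lentiviral vector under puromycin selection, and 2 homozygous clones were made in the study. Which of them was sequenced, and whether the WT cells had received a vector, are not given in the sources used here.

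POU5F1 (OCT4), SOX2 and NANOG are transcription factors that bind many shared sites in pluripotent stem cells and sustain their own and each other's expression. The network extends to other nuclear factors (SALL4, ZFP42, DPPA4), to RNA-binding proteins (LIN28A, LIN28B, L1TD1) and to TDGF1, a membrane co-receptor for Nodal. On the way to mesoderm and endoderm the network does not close at once. SOX2 and ZFP42 are usually lost early, whereas POU5F1, NANOG and LIN28A persist for a time in primitive streak-like cells.

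Each library gives 1 value per gene in FPKM, a fragment count scaled by transcript length and by the total of the library, so levels of different genes can be set side by side. Log2 fold changes are MEIS2-/- over WT after adding 0.1 FPKM to both values, and 13075 genes with at least 1 FPKM in either library were compared. A gene below 1 FPKM in 1 library was compared only through the other, which fixed the direction of its difference. Of the genes named below, this holds for KRT7, VTCN1, CD38 and DNMT3L, all higher in MEIS2-/- cells, and for GDF3, GSC and USP44, all lower. Since each genotype has a single library, the differences below carry no replicate error and no test, and the sequencing depth is unknown. Where a pair of values follows a gene without library names, the WT value comes first. In these bulk samples, more cells that express a gene and more RNA per cell cannot be told apart. The summed FPKM was 447542 in WT and 440651 in MEIS2-/- cells, and the median log2 fold change of all genes compared was 0.12. MEIS2 itself measured 10.85 FPKM in the WT library and 3.44 FPKM in the MEIS2-/- library. A small edit can leave mRNA in place, so this level alone does not check the deletion.

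Of the 10 pluripotency genes, 8 had a higher FPKM in MEIS2-/- than in WT cells and 2 (LIN28B and TDGF1) a lower one. SOX2 stayed below 1 FPKM in both libraries, which left 9 genes for the comparison. Among these 9, 4 (POU5F1, NANOG, L1TD1 and ZFP42) were at least 2-fold higher and 0 were at least 2-fold lower. Across all genes compared, 7.84% were at least 2-fold higher and 7.97% at least 2-fold lower. The median log2 fold change of the 9 genes was 0.95. It was 0.64 without POU5F1.

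**Figure D1:**
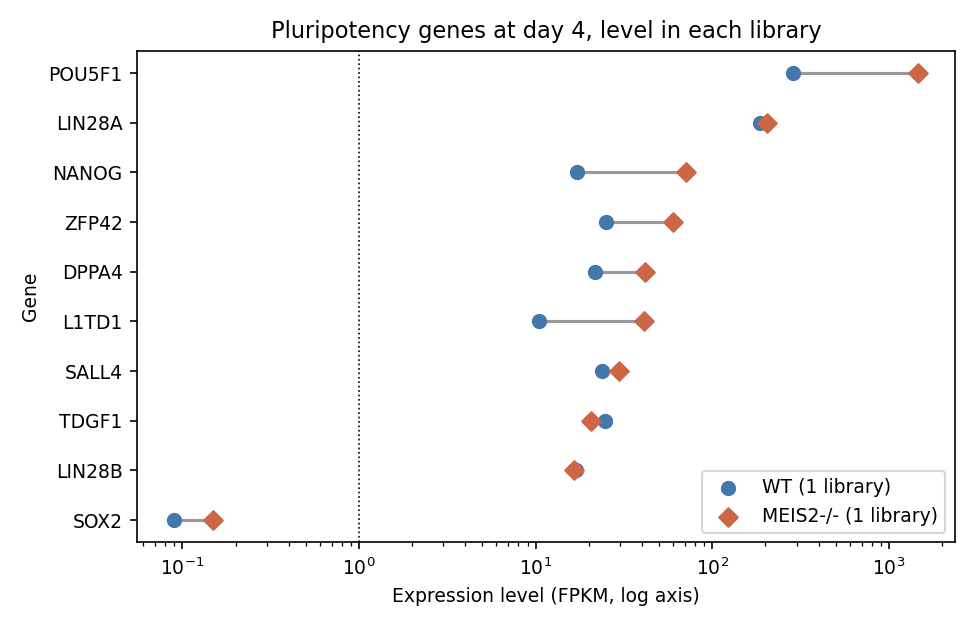
Level of each pluripotency gene in FPKM on a log axis, with a circle for the WT library and a diamond for the MEIS2-/- library joined by a line, and a dotted line at the 1 FPKM limit for comparison. POU5F1, NANOG, L1TD1 and ZFP42 have the long lines to the right, LIN28A and LIN28B are nearly at one place, and SOX2 lies alone at the left.

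POU5F1, the POU-domain factor at the centre of the network, measured 286 FPKM in the WT library and 1454 FPKM in the MEIS2-/- library. This is a ratio of 5.09 and a log2 fold change of 2.35. POU5F1 thus went from place 206 to place 24 among all genes ordered by level. Of the 834 genes that reached 100 FPKM in either library, POU5F1 had the largest rise. The next in that order were PCSK1N, which encodes an inhibitor of a prohormone convertase, with a log2 fold change of 2.20, OLFML3 with 2.19, the mucin-type glycoprotein gene PDPN with 1.91 and the kinase gene PIM2 with 1.89. Among all 13075 genes, many of them far lower in level, 1.01% had a larger log2 fold change than POU5F1.

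NANOG, the homeobox factor, measured 17.1 FPKM in the WT library and 70.8 FPKM in the MEIS2-/- library, with a log2 fold change of 2.04. Only 1.37% of genes compared had a larger rise. POU5F1 and NANOG kept a similar proportion, with 16.7 times as much POU5F1 as NANOG in WT cells and 20.5 times in MEIS2-/- cells. POU5F1 made up 46.6% of the summed FPKM of the 10 genes in WT cells and 75.0% in MEIS2-/- cells. Without it, the sum of the others was 327 FPKM and 486 FPKM.

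LIN28A, the third of the genes that persist in early mesendoderm, did not follow them. It measured 187 FPKM in the WT library and 205 FPKM in the MEIS2-/- library, with a log2 fold change of 0.13 that is close to the median of all genes. In WT cells POU5F1 was 1.53 times as high as LIN28A, and in MEIS2-/- cells 7.10 times as high. The 3 late-persisting genes were therefore at least 2-fold higher in 2 cases and nearly level in 1.

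The genes usually lost first were far apart in level. SOX2, the HMG-box partner of POU5F1 in stem cells, measured 0.09 FPKM in the WT library and 0.15 FPKM in the MEIS2-/- library, too low in both for a fold change. ZFP42 (REX1), a zinc finger factor related to YY1, measured 25.1 FPKM in the WT library and 60.1 FPKM in the MEIS2-/- library, with a log2 fold change of 1.25 exceeded by 4.93% of genes. In WT cells ZFP42 was higher than NANOG, at 25.1 FPKM against 17.1 FPKM, and in MEIS2-/- cells it was lower, at 60.1 FPKM against 70.8 FPKM. POU5F1 and NANOG were thus expressed in both genotypes beside a SOX2 mRNA that was barely detected in either. Without a library of undifferentiated cells, loss or retention of a gene over time was not measured.

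**Figure D2:**
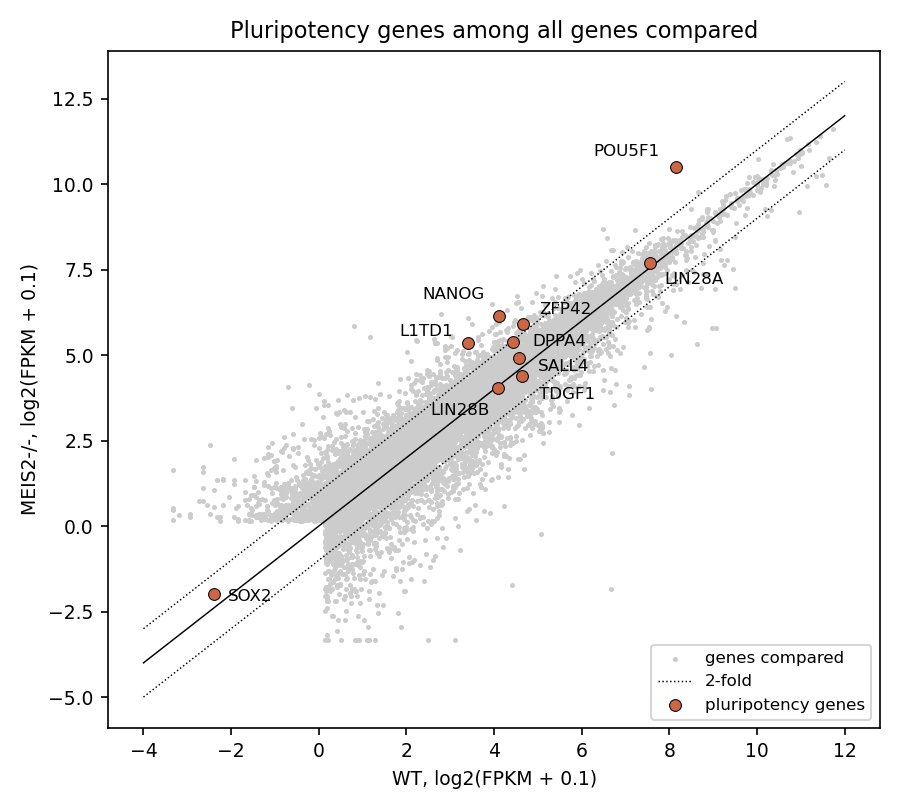
Level of each gene in the WT library (x axis) and the MEIS2-/- library (y axis), both as log2(FPKM + 0.1), with genes compared in grey, the 10 pluripotency genes in orange, equality as a solid line and 2-fold differences as dotted lines. POU5F1 stands apart above the other highly expressed genes, NANOG and L1TD1 lie above the upper dotted line at middle levels, and SOX2 lies at the lower left.

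The promoters of these genes differ in sequence. In the RefSeq table on GRCh38.p14, windows were matched for 7 of the 10 genes, that is all but POU5F1, LIN28A and SALL4. The 250 bases before the transcription start were searched on both strands for the SOX core CATTGT, the octamer core ATGCAAA that POU factors bind, both joined as CATTGTNATGCAAA, and the GC box GGGCGG. The joined motif contains both cores, so a match to it counts for each. Only these exact spellings were counted, so a joined site spelled otherwise could not be found in any window. Among 35116 promoter windows of this length, 2 (0.0057%) hold the joined motif, 3.94% the octamer core, 9.29% the SOX core and 42.6% the GC box.

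The windows of the 3 genes that were at least 2-fold higher and have one, and of SOX2, are given 5′ to 3′ with every match to a motif in capitals. The NANOG window holds the joined OCT-SOX motif on the reverse strand, from 120 to 107 bases before the start, and no window of the other pluripotency genes does. It lies at chr12:7789152-7789401, plus strand.
NANOG: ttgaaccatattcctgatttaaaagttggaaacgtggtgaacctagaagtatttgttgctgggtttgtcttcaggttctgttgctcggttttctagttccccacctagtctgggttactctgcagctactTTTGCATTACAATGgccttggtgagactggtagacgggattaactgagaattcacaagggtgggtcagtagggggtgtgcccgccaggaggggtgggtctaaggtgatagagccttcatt
The ZFP42 window, chr4:187995521-187995770 on the plus strand, holds 3 GC boxes and neither core.
ZFP42: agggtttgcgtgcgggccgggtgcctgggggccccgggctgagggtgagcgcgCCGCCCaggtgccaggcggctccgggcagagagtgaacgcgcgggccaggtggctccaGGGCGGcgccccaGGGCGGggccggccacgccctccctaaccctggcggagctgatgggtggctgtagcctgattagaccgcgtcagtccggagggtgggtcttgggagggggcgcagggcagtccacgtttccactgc
The L1TD1 window, chr1:62194599-62194848 on the plus strand, holds 1 GC box and neither core.
L1TD1: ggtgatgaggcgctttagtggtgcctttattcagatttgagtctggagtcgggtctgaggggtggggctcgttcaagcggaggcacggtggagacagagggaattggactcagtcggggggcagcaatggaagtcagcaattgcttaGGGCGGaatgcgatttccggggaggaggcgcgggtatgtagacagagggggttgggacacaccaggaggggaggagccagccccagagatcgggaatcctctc
The SOX2 window, chr3:181711675-181711924 on the plus strand, holds the octamer core and 1 GC box.
SOX2: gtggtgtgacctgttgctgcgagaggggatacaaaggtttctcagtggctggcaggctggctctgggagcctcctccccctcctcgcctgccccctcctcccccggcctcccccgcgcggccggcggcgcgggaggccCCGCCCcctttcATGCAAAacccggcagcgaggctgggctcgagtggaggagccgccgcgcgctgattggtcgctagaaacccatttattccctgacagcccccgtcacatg
The base composition of these windows ranged widely, from 47.6% G and C with 4 CpG pairs in NANOG to 74.4% with 23 CpG pairs in ZFP42, around a median of 58.0% and 11 CpG pairs over all windows. None of the 4 motifs was present in all 3 windows of the genes that were higher in MEIS2-/- cells. A match is a stretch of letters and not a measured binding site.

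L1TD1, an RNA-binding protein gene derived from a LINE-1 element and expressed in stem cells, measured 10.4 FPKM in the WT library and 41.0 FPKM in the MEIS2-/- library. Its log2 fold change of 1.97 was close to that of NANOG. DPPA4, a SAP-domain chromatin protein of early embryos and germ cells, measured 21.6 FPKM in the WT library and 41.8 FPKM in the MEIS2-/- library. Its log2 fold change of 0.95 fell just short of 2-fold. DPPA2, the neighbour and partner of DPPA4, stayed below 1 FPKM in both libraries, at 0.75 FPKM in WT and 0.91 FPKM in MEIS2-/- cells.

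SALL4, a spalt-family zinc finger factor that binds POU5F1 and NANOG, measured 23.8 FPKM in the WT library and 29.8 FPKM in the MEIS2-/- library, with a log2 fold change of 0.33. A larger rise was seen in 33.3% of genes, so SALL4 was within the middle of the distribution. Its relative SALL1 measured 36.3 FPKM in the WT library and 19.8 FPKM in the MEIS2-/- library. SALL2 had 15.9 FPKM and 19.8 FPKM, and SALL3 had 4.22 FPKM and 3.31 FPKM. Of the 16 family members and copies listed for the pluripotency genes as a whole, 11 were in the tables and 6 were compared. Of these, 0 were at least 2-fold higher and 2 (CFC1 and CFC1B, described with TDGF1) at least 2-fold lower, beside 7.84% and 7.97% of all genes compared. The median log2 fold change of the 6 was -0.61. In WT cells SALL1 was the highest of the 4 spalt genes, and in MEIS2-/- cells SALL4 was.

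**Figure D3:**
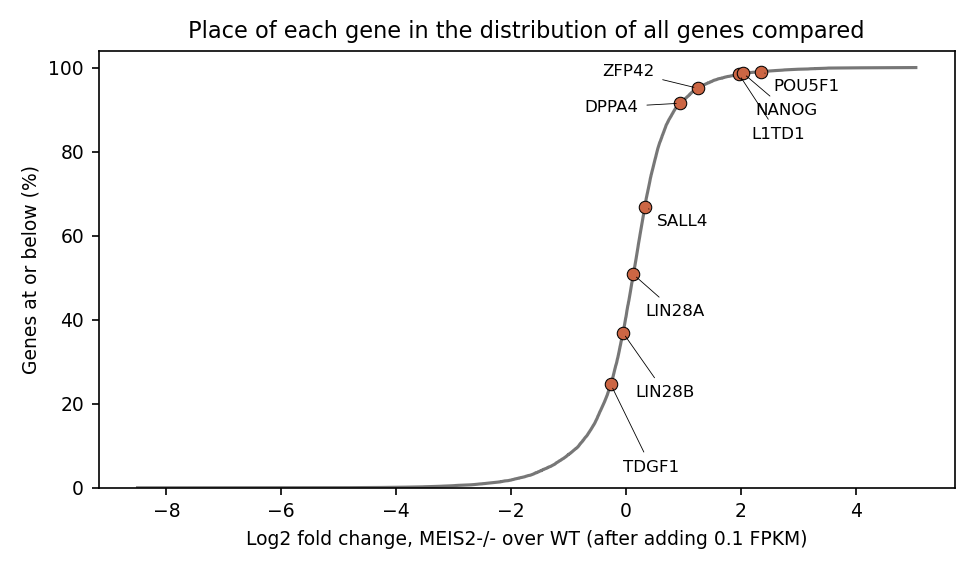
Cumulative distribution of the log2 fold change (x axis, MEIS2-/- over WT after adding 0.1 FPKM) over the genes compared, with the y axis giving the percentage of genes at or below each value and an orange point for each of the 9 pluripotency genes compared. POU5F1, NANOG, L1TD1, ZFP42 and DPPA4 lie on the upper plateau, and SALL4, LIN28A, LIN28B and TDGF1 on the steep middle.

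LIN28A and LIN28B are paralogous RNA-binding proteins that block the maturation of let-7 microRNAs, and let-7 in turn represses both genes. LIN28B measured 17.0 FPKM in the WT library and 16.4 FPKM in the MEIS2-/- library, with a log2 fold change of -0.05. LIN28A was 11.0 times as high as LIN28B in WT cells and 12.5 times in MEIS2-/- cells, so the proportion of the pair was nearly the same in both libraries.

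The sequence link between let-7 and the pair is shown by the seed of let-7 (bases 2 to 8, in capitals, from RefSeq) and its matches, in capitals, in the longest untranslated 3′ end of each gene in GENCODE 29.
hsa-let-7a-5p: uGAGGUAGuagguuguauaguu
LIN28A site: gcacagcctattgaaCTACCTCa
LIN28B site, the first of 4: acccggttgcaaagtCTACCTCa
LIN28A has 1 match to CTACCTC in an untranslated end of 3264 bases and LIN28B has 4 in 4549 bases. Of the 1422 genes whose untranslated end lies between these lengths, 20.8% have at least 1 match on the transcript strand. Among the other pluripotency genes, SALL4 has 1 match and the rest have 0. The let-7 microRNAs were not measured in these libraries.

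Genes known as targets of let-7 were counted next. Of 10 such genes, all compared, 0 were at least 2-fold higher or lower, where 7.84% of all genes were higher and 7.97% lower, so that most genes compared lay within 2-fold as well. Their median log2 fold change was 0.07, against 0.12 over all genes. In the longest untranslated end of each gene, 7 of the 10 have a match to CTACCTC and HMGA2, MYCN and CCND2 have 0; over all protein-coding transcripts with an untranslated end, HMGA2 has 4 matches in 1 of 7, and MYCN and CCND2 have 0. The chromatin protein gene HMGA2 measured 50.7 FPKM in the WT library and 53.8 FPKM in the MEIS2-/- library. IGF2BP1, an RNA-binding protein of fetal tissues, was at 48.9 FPKM and 51.0 FPKM. The proto-oncogene MYCN had the highest log2 fold change of the list, 0.80, with 21.4 FPKM and 37.3 FPKM. Of 8 genes for microRNA processing, 0 were past 2-fold in either direction, with a median of 0.43. DROSHA, the nuclear RNase, was at 12.3 FPKM and 17.7 FPKM, and TUT4, which adds uridines to pre-let-7 together with LIN28A, was at 8.74 FPKM and 7.91 FPKM.

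TDGF1 (Cripto), an EGF-CFC protein that lets Nodal signal through activin receptors, measured 24.8 FPKM in the WT library and 20.7 FPKM in the MEIS2-/- library, with a log2 fold change of -0.26. The other EGF-CFC genes were lower by more. CFC1 measured 39.8 FPKM in the WT library and 11.8 FPKM in the MEIS2-/- library, and CFC1B was at 66.3 FPKM and 15.6 FPKM. CFC1 and CFC1B are near-identical copies whose reads can be split between them, so their separate values are uncertain. NODAL itself measured 1.38 FPKM in the WT library and 7.27 FPKM in the MEIS2-/- library, with a log2 fold change of 2.32.

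Of the 15 genes of the Nodal pathway, all compared, 2 (NODAL and PCSK6, a convertase that cleaves the Nodal precursor) were at least 2-fold higher and 2 (GDF3 and GDF1) at least 2-fold lower, with a median log2 fold change of 0.01. Of all genes compared, 7.84% were at least 2-fold higher and 7.97% at least 2-fold lower. GDF3, a TGF-beta family ligand of stem cells, measured 5.42 FPKM in the WT library and 0.87 FPKM in the MEIS2-/- library. It was compared only through its WT value. GDF1 was at 11.99 FPKM and 4.40 FPKM, a value that is uncertain because GDF1 shares a transcript with CERS1. The receptor gene ACVR1B had 16.7 FPKM and 16.6 FPKM, and the transducer gene SMAD2 6.35 FPKM and 6.04 FPKM. FOXH1, the nuclear partner of the SMADs, was at 50.1 FPKM and 40.7 FPKM. TDGF1 itself and 11 of the 15 were within 2-fold, as were most genes compared.

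Other genes of undifferentiated stem cells did not move as one group. Of 22 such genes on the list, 21 were in the tables and 19 were compared. At least 2-fold higher were 5 of the 19 (PRDM14, CDH1, EPCAM, UTF1 and SFRP2), at least 2-fold lower were 4 (OTX2, USP44 and TERT among them), and 10 lay in between. Their median log2 fold change was 0.11, against 0.12 over all genes, of which 7.84% were at least 2-fold higher and 7.97% at least 2-fold lower. The transcriptional regulator PRDM14 measured 2.26 FPKM in the WT library and 8.63 FPKM in the MEIS2-/- library, and the chromatin protein gene UTF1 was at 24.6 FPKM and 60.3 FPKM. The epithelial adhesion genes CDH1, at 10.7 FPKM and 33.4 FPKM, and EPCAM, at 62.0 FPKM and 179 FPKM, were higher as well.

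The genes of this list that were lower include OTX2, a factor of the primed stem cell state. It measured 11.4 FPKM in the WT library and 3.30 FPKM in the MEIS2-/- library. The de novo methyltransferase DNMT3B was at 76.9 FPKM and 45.4 FPKM, a log2 fold change of -0.76. TERT, the catalytic subunit of telomerase, was at 2.36 FPKM and 1.07 FPKM. USP44, at 1.16 FPKM and 0.36 FPKM, was compared only through its WT value. Both TERT (-0.70) and USP44 (-0.67) fell short of 2-fold when the pseudocount was 1 FPKM. FGF2 had 2.17 FPKM and 2.57 FPKM, and the surface sialomucin gene PODXL 195 FPKM and 166 FPKM. Within this list, MEIS2-/- cells thus had more PRDM14 and UTF1 mRNA and less OTX2 and TERT mRNA, with no common direction.

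Genes linked to naive pluripotency were split too. Of 13 listed, 9 were compared, 4 were at least 2-fold higher and 0 at least 2-fold lower, with a median of -0.01. The shares over all genes compared were 7.84% and 7.97%. DNMT3L, among the 4, was below 1 FPKM in WT cells and was compared only through its MEIS2-/- value. The Kruppel-like factor KLF4 measured 7.26 FPKM in the WT library and 37.4 FPKM in the MEIS2-/- library, with a log2 fold change of 2.35 equal to that of POU5F1. The surface protein gene SUSD2 was at 2.46 FPKM and 18.1 FPKM, TFCP2L1 at 1.54 FPKM and 4.63 FPKM, and DNMT3L at 0.22 FPKM and 1.44 FPKM. DPPA3, at 5.90 FPKM and 4.71 FPKM, was not among them. KLF17, a naive-state factor, was at 0.07 FPKM in WT cells and listed at 0 in MEIS2-/- cells, and DPPA5 was listed at 0 in WT cells and at 0.13 FPKM in MEIS2-/- cells.

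**Figure D4:**
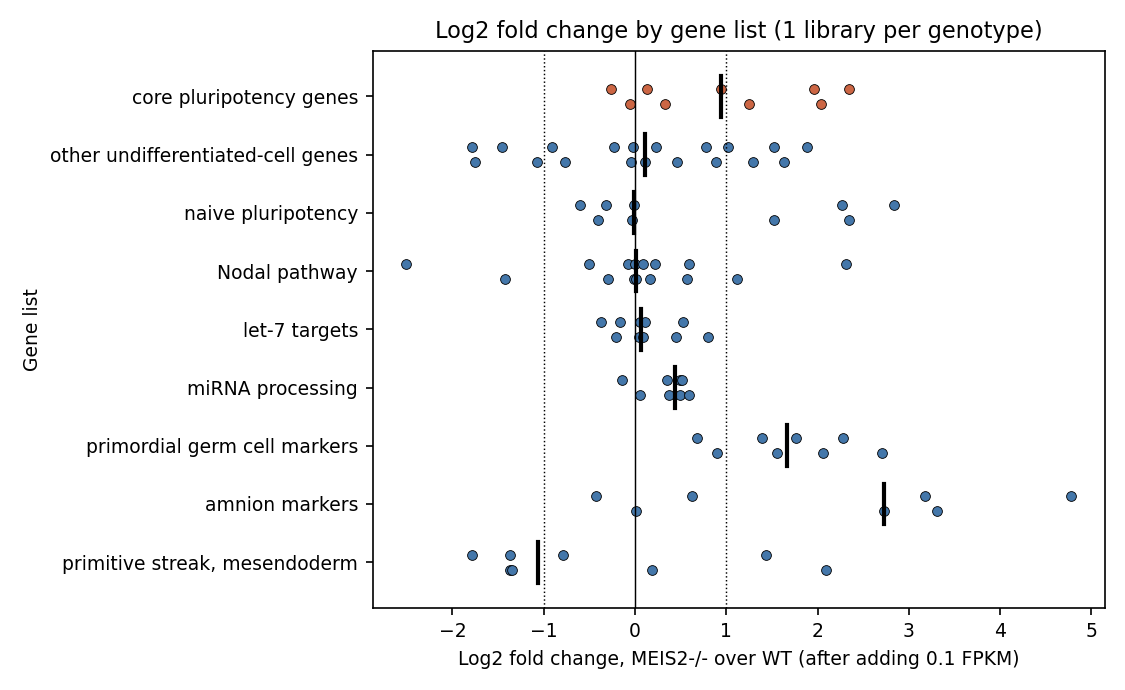
Log2 fold change (x axis, MEIS2-/- over WT after adding 0.1 FPKM) of each compared gene, 1 point per gene and 1 line per gene list, with a black bar at the median and dotted lines at 2-fold. The core pluripotency genes (orange) spread from -0.26 to 2.35, the let-7 targets and microRNA processing genes all lie within the dotted lines, and the amnion markers reach furthest to the right, to 4.78. That point is KRT7, which was below 1 FPKM in WT cells.

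Of 6 listed factors that oppose the network, 4 were compared, with a median log2 fold change of -0.46. At least 2-fold higher was 1 (CDX2) and at least 2-fold lower were 0, beside 7.84% and 7.97% of all genes compared. CDX2, which represses POU5F1 in trophectoderm, measured 4.83 FPKM in the WT library and 21.2 FPKM in the MEIS2-/- library, with a log2 fold change of 2.11. NR6A1, a nuclear receptor that silences POU5F1 during differentiation, was at 26.7 FPKM and 18.4 FPKM. GATA6 had 72.5 FPKM and 55.4 FPKM, and TCF7L1 41.6 FPKM and 26.2 FPKM. NR2F2 was just below 1 FPKM in both libraries, at 0.98 FPKM and 0.99 FPKM. The POU5F1 and CDX2 mRNAs were thus both higher in MEIS2-/- cells.

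Markers of other cells in which POU5F1 or NANOG can be expressed were counted beside them. Of 10 markers of primordial germ cells, 9 were in the tables and 8 were compared, of which 6 were at least 2-fold higher and 0 at least 2-fold lower. Their summed FPKM was 206 in WT cells and 488 in MEIS2-/- cells, and DDX4, a marker of later germ cells, was at 0.10 FPKM and listed at 0. Over all genes compared, 7.84% were at least 2-fold higher and 7.97% at least 2-fold lower. Among the 6 markers at least 2-fold higher, TFAP2C was at 10.4 FPKM and 68.3 FPKM, and NANOS3 at 24.4 FPKM and 83.3 FPKM. SOX17, which pairs with POU5F1 outside stem cells, was at 141 FPKM and 264 FPKM. Its log2 fold change of 0.90 fell short of 2-fold. SOX17 is also a gene of endoderm and endothelium, and TFAP2C and TFAP2A are also amnion genes.

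Of 8 amnion markers, 7 were compared, 4 were at least 2-fold higher and 0 at least 2-fold lower, with a median log2 fold change of 2.73. The shares over all genes compared were 7.84% and 7.97%. KRT7, among the 4, measured 0.51 FPKM in the WT library and 16.7 FPKM in the MEIS2-/- library. KRT7 and VTCN1, both counted as higher, were below 1 FPKM in WT cells and were compared only through their MEIS2-/- values. Both lie above the median of the list and raise it. The log2 fold changes of the rest were 3.31 for GABRP, 2.73 for IGFBP3, 0.62 for ISL1, 0.01 for GATA3 and -0.43 for HAND1. The amnion sum was 426 FPKM and 393 FPKM, most of it from HAND1, which is also a mesoderm gene, at 358 FPKM and 265 FPKM. Of 8 primitive streak and mesendoderm markers, all compared, 2 (TBXT and MIXL1) were at least 2-fold higher and 4 (LHX1, MESP1, TBX6 and GSC) at least 2-fold lower, with sums of 88.9 FPKM and 81.0 FPKM. TBXT was at 2.44 FPKM and 10.7 FPKM. Of 8 neuroectoderm markers, 6 were in the tables, none of these 6 reached 1 FPKM in either library, and they summed to 1.61 FPKM and 0.88 FPKM. The part of these cell types in the levels of the pluripotency genes was not tested.

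Some of the 10 genes have close copies elsewhere in the genome, which bears on their values. In windows of 50 bases, 63.4% of the main POU5F1 transcript (NM_002701) also occurs in transcripts of other genes in GENCODE 29, mostly POU5F1B and the pseudogenes POU5F1P3 and POU5F1P4. For NANOG, 16.9% of the longer transcript NM_024865 and 84.5% of the shorter NM_001297698 are shared, mostly with the pseudogenes NANOGP8 and NANOGP1, and for TDGF1 41.2% of NM_003212, mostly with TDGF1P3. In the other 7 genes at most 5.76% of the matched transcripts was shared. POU5F1B measured 0.04 FPKM in the WT library and 0.25 FPKM in the MEIS2-/- library. Of the pseudogenes, NANOGP1, NANOGP8 and TDGF1P3 were looked up and not found among the genes listed. POU5F1P3 and POU5F1P4 were not looked up. The POU5F1, NANOG and TDGF1 values are therefore uncertain to the extent that reads of copies were counted on them, which was not tested. ZFP42 and L1TD1, with 2.11% and 5.76% shared, were at least 2-fold higher as well. Their values do not show how many reads of copies were counted on POU5F1 or NANOG. The table gives 1 value for the 5 POU5F1 transcripts, so its isoforms cannot be told apart.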

How the data were processed

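RNA-Seq was made from 1 WT and 1 MEIS2-/- culture. The authors' deposited tables give FPKM with 2 decimals, keyed by NCBI Gene number with RefSeq transcripts. The submitters' processing notes name hg19, BWA, Bowtie and RSEM, without versions or roles. FPKM holds no counts. Low values of single-transcript genes were compared with steps of whole reads. Agreement, where 1 is complete, reached 0.112 in WT (671 genes) and 0.139 in MEIS2-/- cells (780 genes), so depth is unknown and no counting interval is given.

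Symbols came from RefSeq (GRCh38.p14), used for names only, and matched 17365 of 17397 genes. Coordinates of promoter windows are on GRCh38.p14 and were not mixed with hg19. Log2 fold changes used a pseudocount of 0.1 FPKM and a filter of 1 FPKM in either library, as deposited, without rescaling. No test was possible. The calculation was tested on simulated data. The genes, the 11 other lists and the rule for named genes (all listed genes, MEIS2 and the 5 largest rises at 100 FPKM or more) were chosen with earlier results of these data known. Each list named was counted once, and 9 alternatives were tried. Python 3.11.15, numpy 2.4.6, pandas 2.3.3 and matplotlib 3.10.9 were used. The values of 1 gene of the list of undifferentiated cells are not reported here.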

Additional observations from a re-analysis of the deposited data

How the results depend on the processing

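The 4 pluripotency genes at least 2-fold higher were 4 under each pseudocount, filter and scaling tried, 5 at a threshold of 1.5-fold and 2 (POU5F1 and NANOG) at 4-fold, and 0 were lower under every setting. Among all genes compared, 18% were higher and 14.5% lower at 1.5-fold, and 1.48% and 1.84% at 4-fold. The median log2 fold change of all pluripotency genes compared was 0.95. It became 0.92 with a pseudocount of 1 FPKM and 0.67 without a filter, which admits SOX2. It became 0.83 with the median log2 ratio set to 0, 0.84 with TMM scaling and 0.97 with TPM scaling. Over these settings POU5F1 ran from 2.23 to 2.37, NANOG from 1.93 to 2.07, ZFP42 from 1.14 to 1.28, DPPA4 from 0.83 to 0.97 and LIN28A from 0.01 to 0.15. Of all genes, 623 were higher and 693 lower with a pseudocount of 1 FPKM, 1567 and 1516 without a filter, 815 and 1197 with the median log2 ratio set to 0, 837 and 1179 with TMM scaling, 554 higher and 598 lower with a filter at 5 FPKM, 2353 and 1890 at 1.5-fold, and 194 and 241 at 4-fold. These counts are out of 13075 genes at each pseudocount and threshold, 17397 without a filter and 9326 with a filter at 5 FPKM. They are out of 13004 with the median log2 ratio set to 0 and 13011 with TMM scaling. Of the other genes of undifferentiated cells, 2 were lower with a pseudocount of 1 FPKM or a filter at 5 FPKM, and at 4-fold 0 were higher and 0 lower. With a pseudocount of 1 FPKM, TERT (-0.70), USP44 (-0.67), PCSK6 (0.82) and GSC (-0.76) fell short of 2-fold. Under the scaling to a median of 0, SFRP2 fell short of 2-fold (0.91), GPC4 passed it (-1.03), and near-level genes such as HMGA2 (-0.03) and IGF2BP1 (-0.06) changed sign. No paired analysis was possible because each genotype has 1 library. Leaving out a library was not possible for the same reason. Unknown depth limits what can be said of SOX2 and other genes below 1 FPKM.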
